A study of Mus musculus with 6 samples.

Results

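Sox genes encode transcription factors with a DNA-binding HMG box, and 10 of them from 3 subgroups are described here in outer hair cells of the mouse cochlea at the embryonic stage E18.5. The genes were chosen by family, with earlier results of these data known, and the rule uses no measured value: Sox1, Sox2, Sox3 and Sox21 of subgroup B, Sox4, Sox11 and Sox12 of subgroup C, and Sox8, Sox9 and Sox10 of subgroup E. All 10 symbols were found among the 23337 gene symbols of the deposited count tables. RNA depleted of ribosomal RNA was sequenced from cells that were sorted for a GFP-Cre allele at Insm1, so that both genotypes carried this allele, and 3 libraries came from Insm1-Het and 3 from Insm1-KO mice. Insm1 encodes a zinc-finger transcription factor of nascent outer hair cells, and by its title the series is about outer hair cells turning into inner hair cells when it is lost. The labels give neither the part of Insm1 that is deleted, nor strain and sex, nor whether a library came from 1 animal, a pool or a litter, so p-values reflect the variation among these libraries alone, and that variation may be technical.

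Members of a Sox subgroup have closely similar HMG boxes and often act redundantly. The SoxB1 factors Sox1, Sox2 and Sox3 maintain progenitor states, and Sox2 is required for the prosensory domain of the cochlea, from which hair cells and supporting cells both arise; Sox21, of the B2 branch, mostly acts as a repressor. SoxC factors promote differentiation and survival of cells that leave the progenitor state, in the inner ear as in neurons. SoxE factors act in the otic placode and vesicle, cartilage, neural crest and glia, and in the cochlea Sox9 and Sox10 mark mainly supporting cells and other non-sensory epithelium.

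The Het libraries held 10721902 to 12427039 counts and the KO libraries 7705177 to 9748629. Levels are given as CPM, the usual unit of read counts relative to library size, with library sizes adjusted by TMM. Insm1 was counted in every library, at 109, 116 and 69.2 CPM in Het replicates 1, 2 and 3 and at 78.7, 60.3 and 18.7 CPM in the KO replicates, so the groups overlapped. As the deleted part is not stated, residual transcript could be counted, and the labels are checked only in part by this level. All 10 hair cell markers passed the filter on low counts, and their summed level ran from 10779 to 11194 CPM in Het and from 10748 to 12313 CPM in KO libraries. Markers of supporting cells (14 genes) summed to 1238 to 1472 CPM in Het and 1403 to 2220 CPM in KO libraries, and the highest value was that of KO replicate 3. Dct, Tyr, Tyrp1 and Mlana of the 7 melanocyte markers and Foxd3 of the 8 glial markers were at 0 in every library. Other members of both lists were counted in all 6: Kit of the melanocyte list at 52.9 to 166 CPM and Cnp of the glial list at 83.4 to 145 CPM. In bulk samples fewer cells of a type and less RNA per cell cannot be told apart. Pairs of libraries of 1 genotype had Pearson correlations of log2 CPM from 0.761 to 0.840 across genes, and the lowest pairs both held KO replicate 3.

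The SoxB and SoxC genes are compact on GRCm38: each of the 7 was annotated by GENCODE M21 as 1 exon, against 3 merged exons for Sox8 and Sox9 and 5 for Sox10. Upstream sequence is shown for Sox2, the member with the highest level per length, for Sox11, the member with the most counts, and for Sox4, whose window held the most CCAAT boxes. Each is the 250 bases before the start in RefSeq (GRCm38.p6), written 5′ to 3′ on the gene's own strand, with CCAAT or its reverse complement ATTGG in capitals. The windows are chr3:34649745-34649994 on the plus strand for Sox2, chr12:27342719-27342968 on the minus strand for Sox11 and chr13:28953700-28953949 on the minus strand for Sox4.
Sox2: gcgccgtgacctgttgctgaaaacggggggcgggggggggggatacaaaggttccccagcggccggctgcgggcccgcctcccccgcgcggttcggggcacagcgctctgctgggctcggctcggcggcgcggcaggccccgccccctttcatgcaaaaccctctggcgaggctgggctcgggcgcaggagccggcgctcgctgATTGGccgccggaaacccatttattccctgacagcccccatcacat
Sox11: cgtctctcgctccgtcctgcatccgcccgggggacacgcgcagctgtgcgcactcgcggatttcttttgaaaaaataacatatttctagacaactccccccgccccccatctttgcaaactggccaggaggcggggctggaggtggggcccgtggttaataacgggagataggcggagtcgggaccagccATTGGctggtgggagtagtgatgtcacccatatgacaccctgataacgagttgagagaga
Sox4: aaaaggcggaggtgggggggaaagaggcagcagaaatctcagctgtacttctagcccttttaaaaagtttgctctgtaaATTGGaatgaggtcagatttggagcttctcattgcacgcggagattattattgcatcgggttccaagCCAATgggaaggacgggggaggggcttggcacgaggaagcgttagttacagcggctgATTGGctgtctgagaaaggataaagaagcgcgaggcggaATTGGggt
The Sox2 and Sox11 windows each held 1 CCAAT box and the Sox4 window 4. RefSeq windows were matched for 7 of the 10 members, and 5 of these 7 (Sox1, Sox2, Sox4, Sox11 and Sox12) held at least 1 such box on either strand, against 33.8% of 32851 windows of the same length. The windows of Sox21 and Sox8 held none of these letters. The GC content of the 7 windows ran from 50.8% for Sox4 to 74.4% for Sox12, against a median of 52.4% over all windows. The Sox1 window, at 71.2% GC with 29 CpG dinucleotides, was close to that of Sox2, at 72% with 27, while their transcript levels were far apart in these libraries. A match is a description of the letters and not a site of binding.

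Sox2 had the highest level per length, and Sox1 and Sox3 were at or near 0. To compare genes, CPM was divided by the length of the merged exons in kb, and the following means are over the 6 libraries with their SD. Sox2 stood at 73.8 ± 15.5 CPM per kb (SD, n = 6), above Sox11 in all 6 libraries. The ranges only just missed each other, with the lowest Sox2 library at 54.24 and the highest Sox11 library at 54.15 CPM per kb. Their separation therefore depends on the lengths used. Next came Sox11 at 38.0 ± 10.9, Sox9 at 31.5 ± 3.97 and Sox12 at 25.3 ± 5.38 CPM per kb (SD, n = 6). These neighbours did not differ beyond their spread: Sox11 exceeded Sox9 in 3 of 6 libraries, and the ranges of Sox9 and Sox12 overlapped although Sox9 was higher in 5 of 6. Sox21 at 17.1 ± 10.2, Sox4 at 15.6 ± 5.63 and Sox10 at 15.6 ± 10.1 CPM per kb (SD, n = 6) were not ordered beyond their spread either. Sox21 exceeded Sox4 in only 2 of 6 libraries, and the mean of Sox21 above Sox4 rests on Het replicate 3 and KO replicate 2. Sox8 at 1.15 ± 1.04 CPM per kb (SD, n = 6) was below Sox10 in all 6 libraries with no overlap, and Sox1 and Sox3 followed. The exon lengths are those of GENCODE and may differ from the annotation used for counting.

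**Figure D1:**
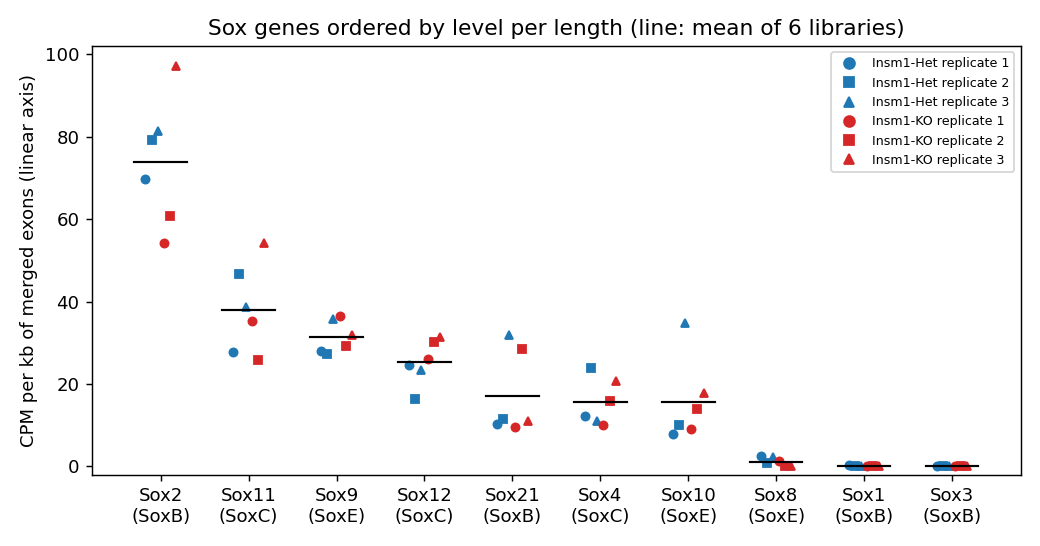
Level per length of the 10 Sox genes, as CPM per kb of merged exons on a linear axis; points are the 3 Insm1-Het (blue) and 3 Insm1-KO (red) libraries and lines are means of the 6. Sox2 lies above all others, with its lowest library at 54.24 against 54.15 for the highest of Sox11. The 6 genes from Sox11 to Sox10 overlap their neighbours among these 6, and Sox8, Sox1 and Sox3 lie near 0.

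The SoxB subgroup was represented almost wholly by Sox2 and Sox21. Sox2 (ENSMUSG00000074637, chromosome 3, 34650405 to 34652461) was at 144, 163 and 167 CPM in Het replicates 1, 2 and 3 and at 112, 125 and 200.0 CPM in the KO replicates. KO replicates 1 and 2 lay below every Het library and KO replicate 3 above them, so the groups overlapped. The means were 158 ± 12.6 and 146 ± 47.6 CPM (SD, n = 3 each), and the log2 fold change of KO against Het was -0.12 (SE 0.30), with a 95% interval from -0.77 to 0.53 that spans folds from 0.585 to 1.45. The spread of Sox2 between KO libraries (coefficient of variation 32.7%) was larger than between Het libraries (7.99%), and counting error alone gives 2.81% and 2.31%. Without KO replicate 3 the log2 fold change was -0.41, and without KO replicate 1 it was 0.04.

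Sox21 (ENSMUSG00000061517, chromosome 14, 118233232 to 118237030), a repressor that counters SoxB1 factors in neural progenitors, had levels of 39.3, 43.3 and 121 CPM in Het and 36.3, 108 and 41.8 CPM in KO replicates. The high libraries were 1 of each genotype, Het replicate 3 and KO replicate 2, and the other 4 lay between 36.3 and 43.3 CPM. Its log2 fold change was -0.13 (SE 0.56, 95% interval -1.33 to 1.07), and it went from 0.59 without Het replicate 3 to -0.79 without KO replicate 2. An opposite-strand gene, Gm4675, covers 18.8% of its exon, and since the strand setting of the counting is not given, their reads cannot be told apart. Sox1 (ENSMUSG00000096014, chromosome 8, 12395295 to 12400126), a factor of neural progenitors, had 15 counts in Het replicate 1 and 0 in the other 5 libraries. Sox3 (ENSMUSG00000045179, chromosome X, 60891366 to 60893430), the X-linked SoxB1 gene, had 0 counts in all 6, where a count of 0 allows up to 0.237 to 0.391 CPM per library, for counting error only. Sox1 and Sox3 did not pass the filter on low counts and were not tested.

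All 3 SoxC genes had between 448 and 4134 counts in every library. Sox11 (ENSMUSG00000063632, chromosome 12, 27334264 to 27342574), which together with Sox4 supports neuronal and sensory differentiation, was at 230.1, 387 and 321 CPM in Het and at 293, 215 and 450.0 CPM in KO replicates. The lowest and the highest library were both KO, so the groups overlapped fully. The log2 fold change was 0.03 (SE 0.30, 95% interval -0.61 to 0.67), and its direction turned without KO replicate 3 (-0.29) and without Het replicate 1 (-0.15). Sox4 (ENSMUSG00000076431, chromosome 13, 28948919 to 28953713) was at 58.6, 115 and 53.3 CPM in Het and at 47.8, 76.3 and 99.3 CPM in KO replicates. Het replicate 2 was the highest and KO replicate 1 the lowest, and the log2 fold change was -0.02 (SE 0.44, 95% interval -0.97 to 0.93), or 0.41 without Het replicate 2. Of the Sox4 exon, 54.6% is covered by the opposite-strand gene Gm26735, so the Sox4 counts are uncertain to that extent.

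Sox12 was the only tested Sox member whose libraries did not overlap between genotypes. Sox12 (ENSMUSG00000051817, chromosome 2, 152393611 to 152398063), the SoxC gene with the weakest transactivation, was at 110, 73.0 and 104 CPM in Het and at 116, 134 and 140.1 CPM in KO replicates. All KO libraries lay above all Het libraries, with means of 95.5 ± 19.7 and 130 ± 12.7 CPM (SD, n = 3 each). The log2 fold change was 0.44 (SE 0.32, 95% interval -0.24 to 1.13), and Sox12 missed the threshold over all genes (edgeR quasi-likelihood, Benjamini-Hochberg adjusted p = 0.958). With 1 library left out it ranged from 0.28 without Het replicate 2 to 0.55 without Het replicate 1. Such a separation in the direction of higher KO was present in 1 of the 8 tested members (12.5%), against 5.08% of all 11714 tested genes; in the other direction it was present in 0 of the 8, against 6.1%. With 1 gene the count carries no more than this description.

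**Figure D2:**
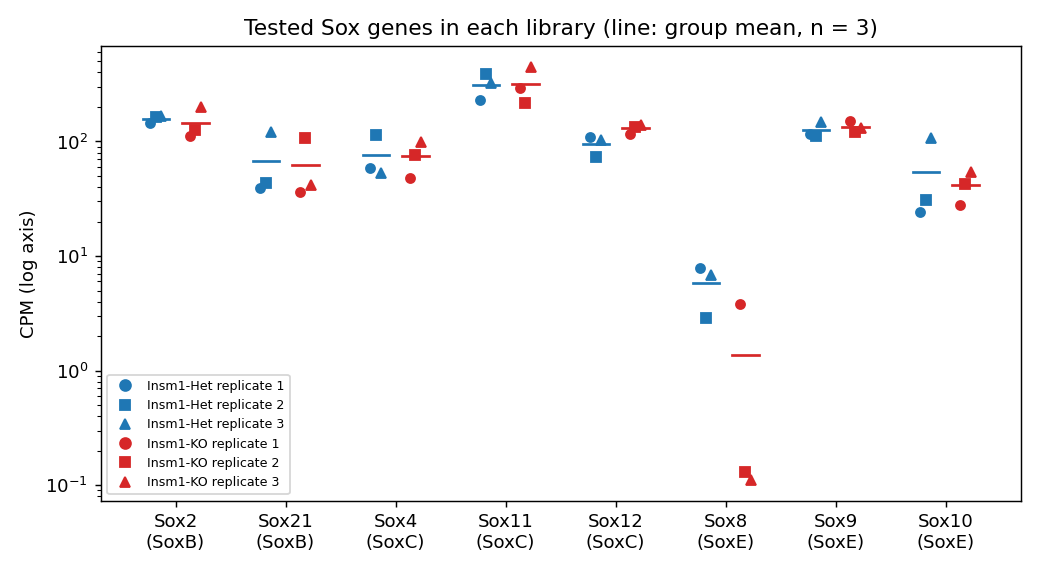
CPM (log axis) of the 8 tested Sox genes in each library; blue, Insm1-Het; red, Insm1-KO; the symbol gives the replicate number and the line the group mean (n = 3). Sox12 has all KO points above all Het points, Sox21 and Sox10 each have Het replicate 3 well above the other Het libraries, and Sox8 lies lowest.

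Of the SoxE genes, Sox9 varied little and Sox10 was high in 1 library. Sox8 was low, and in KO replicates 2 and 3 it was near its counting limit. Sox9 (ENSMUSG00000000567, chromosome 11, 112782224 to 112787760), the regulator of cartilage and of otic invagination, was at 116, 113 and 148 CPM in Het and at 151, 121 and 132 CPM in KO replicates. The groups overlapped, and the log2 fold change was 0.10 (SE 0.30, 95% interval -0.53 to 0.74), or 0.0090 without KO replicate 1. Its highest library was 1.34 times its lowest, the smallest such ratio among the 8 tested members, and its coefficients of variation were 15.5% in Het and 11.4% in KO libraries. Sox10 (ENSMUSG00000033006, chromosome 15, 79154908 to 79165240), a factor of neural crest and glia that is also present in otic epithelium, was at 24.1, 30.9 and 106 CPM in Het and at 28.0, 42.3 and 54.5 CPM in KO replicates. Het replicate 3 was 3.87 times the mean of the other two Het libraries and above every KO library, while the other two Het libraries lay below KO replicates 2 and 3. The direction of the Sox10 difference turned without that library: the log2 fold change was -0.37 (SE 0.60, 95% interval -1.67 to 0.92) with all 6 libraries and 0.61 without Het replicate 3.

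Sox8 (ENSMUSG00000024176, chromosome 17, 25565892 to 25570686), the SoxE paralogue that overlaps in function with Sox9 and Sox10, was counted 96, 31 and 86 times in the Het replicates and 36, 1 and 1 times in the KO replicates. In CPM these were 7.82, 2.90 and 6.80 in Het and 3.84, 0.130 and 0.111 in KO libraries. Only KO replicate 1 overlapped the Het range, at a level above Het replicate 2, and KO replicates 2 and 3 stood below the level of 3 counts that is used here as a floor. The log2 fold change was -2.09 (SE 1.67), with a 95% interval from -5.68 to 1.51, the widest of the 8 tested members. Sox8 missed the threshold (edgeR quasi-likelihood, Benjamini-Hochberg adjusted p = 0.977). Without KO replicate 1 the log2 fold change was -5.47 with an unadjusted p of 0.028 in edgeR's test across all genes, and this too did not pass after adjustment. In that fit 1 of the 8 tested members was at an unadjusted p under 0.05, as were 1012 of 12255 tested genes. An opposite-strand gene, 2810468N07Rik, covers 10.6% of the Sox8 exons.

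None of the 8 tested members passed, and 0% of the 11714 tested genes did at an adjusted p under 0.05 by edgeR, while DESeq2 passed 26 genes and limma-voom 0, with no Sox member among them. At an unadjusted p under 0.05 edgeR's test placed 0 of the 8 members, against 5.34% of all tested genes (626); DESeq2 and limma-voom also placed 0 of 8 there. Adjusted p for the members ran from 0.958 for Sox12 to 0.998 for Sox4 (edgeR quasi-likelihood, Benjamini-Hochberg). Of the 8, 3 (Sox11, Sox12 and Sox9) had a log2 fold change above 0 and 5 below 0; with library-size scaling Sox11 turned below 0 and the counts were 2 and 6. The median was -0.07, against 0.02 over all tested genes. The intervals set what these libraries could show: for Sox2, Sox9 and Sox11 a fold outside 0.585 to 1.66 is outside the 95% interval, while for Sox8 folds from 0.0195 to 2.84 are within it.

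**Figure D3:**
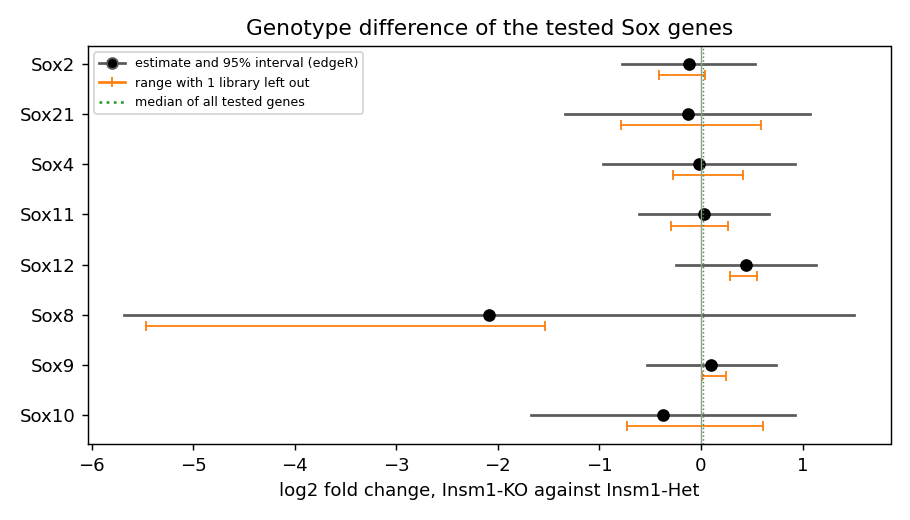
Log2 fold change of Insm1-KO against Insm1-Het for the 8 tested Sox genes, with the 95% interval of edgeR's quasi-likelihood fit (grey), the range when 1 library is left out (orange) and the median of all tested genes (dotted). Each interval includes 0, the Sox8 interval is the widest, and the orange ranges of Sox2, Sox21, Sox4, Sox11 and Sox10 cross 0.

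Summed per length, the 3 subgroups made up similar shares in both genotypes. SoxB held 43.8%, 42.0% and 43.7% of the summed CPM per kb of the 10 genes in Het and 35.1%, 43.7% and 40.9% in KO replicates. KO replicate 1 was the low library for SoxB, and it was also the library with the lowest Sox2 level. SoxC held 35.2%, 40.2% and 28.2% in Het and 39.1%, 35.2% and 40.2% in KO replicates. SoxE held 21.0%, 17.7% and 28.1% in Het and 25.8%, 21.1% and 18.9% in KO replicates. Het replicate 3 had the lowest SoxC and the highest SoxE share of the 6, which goes with its Sox10 level. Within SoxB, Sox2 made up 82.0% ± 8.85 in Het and 81.0% ± 11.4 in KO libraries (SD, n = 3), and the rest was almost wholly Sox21. Within SoxE, Sox9 made up 64.4% ± 13.3 and 69.9% ± 7.12 (SD, n = 3) and Sox8 3.98% ± 2.21 and 0.931% ± 1.47. Sums over the members were not tested.

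**Figure D4:**
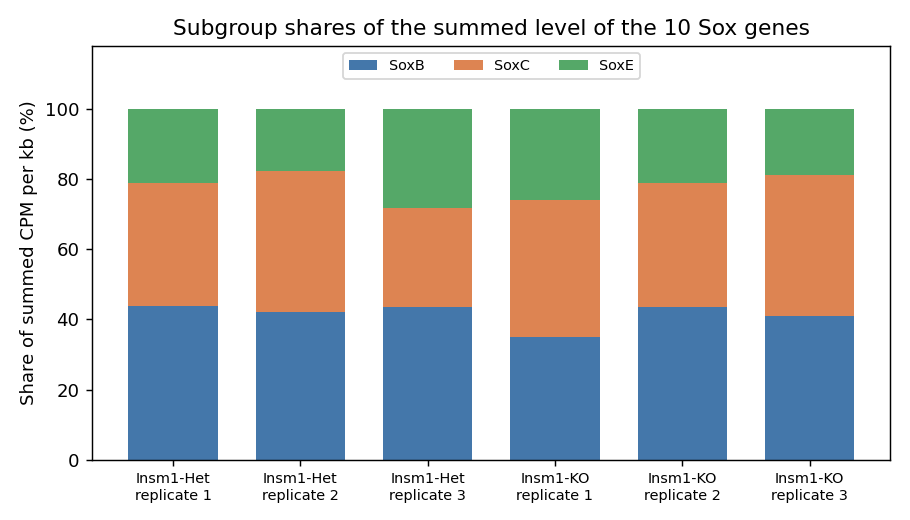
Share of each subgroup in the summed CPM per kb of the 10 Sox genes, stacked to 100% for each of the 6 libraries. SoxB lies between 35.1% and 43.8%, and Het replicate 3 has the largest SoxE share, 28.1%.

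Sox10 and Sox21 were both highest in Het replicate 3, in which most of the markers of the greater epithelial ridge, the non-sensory epithelium medial to the hair cells, were also highest. This pattern was chosen after its values were seen. Of the 5 ridge markers, 4 (Epyc, Tecta, Otog and Itga8) had their highest level in that library, as did 16.6% of all tested genes. The fifth, Otoa, went the other way, at 0.553 CPM in Het replicate 3 against 2.77 and 5.81 CPM in Het replicates 1 and 2. The summed level of the 5 was 462, 549 and 1550 CPM in Het and 670, 843 and 1261 CPM in KO replicates. Epyc, a small proteoglycan, was at 94.0 CPM in Het replicate 3 and at 0 to 7.33 CPM in the other 5 libraries, with 0 in Het replicate 2 and KO replicate 2. Tecta, a tectorial membrane protein, was at 980 CPM in Het replicate 3 and at 286 to 846 CPM elsewhere. Sox21 was also high in KO replicate 2, where Epyc was at 0 and Itga8, an integrin subunit, was at 246 CPM. Itga8 was at 93.2, 79.8 and 256 CPM in Het replicates 1, 2 and 3 and at 124 and 224 CPM in KO replicates 1 and 3. In KO replicate 3 Sox21 was at 41.8 CPM. Sox9 followed neither, with Het replicate 3 at 1.29 times the mean of the other two Het libraries. Markers of mesenchyme and cartilage also summed highest in Het replicate 3, at 755 CPM against 399 to 576 CPM in the other 5 libraries. Most of that sum was Pdgfra at 349 CPM and Col2a1 at 384 CPM. Of these 9 genes, 4 (Pdgfra, Tbx18, Pou3f4 and Matn1) were highest there, as were 16.6% of all tested genes. Tbx18 was counted only there, with 79 counts, and Pou3f4 and Matn1 had 28 and 19 counts there. Col1a1 was highest in Het replicate 2, Col1a2 and Col3a1 in KO replicate 1 and Col2a1 in KO replicate 3. Acan was at 0 in all 6 libraries. The part of ridge or mesenchymal cells in the Sox10 and Sox21 levels was not tested. The sum of the 14 supporting cell markers did not peak in the same library. It was 1472 CPM in Het replicate 3 and 2220 CPM in KO replicate 3, the library with the highest Sox2, Sox11 and Sox12. Of the 14, 4 were highest in Het replicate 3 (Fgfr3, Slc1a3, Gjb2 and Fabp7) and 7 in KO replicate 3. Of all tested genes, 16.6% and 24.5% were highest in these libraries.

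**Figure D5:**
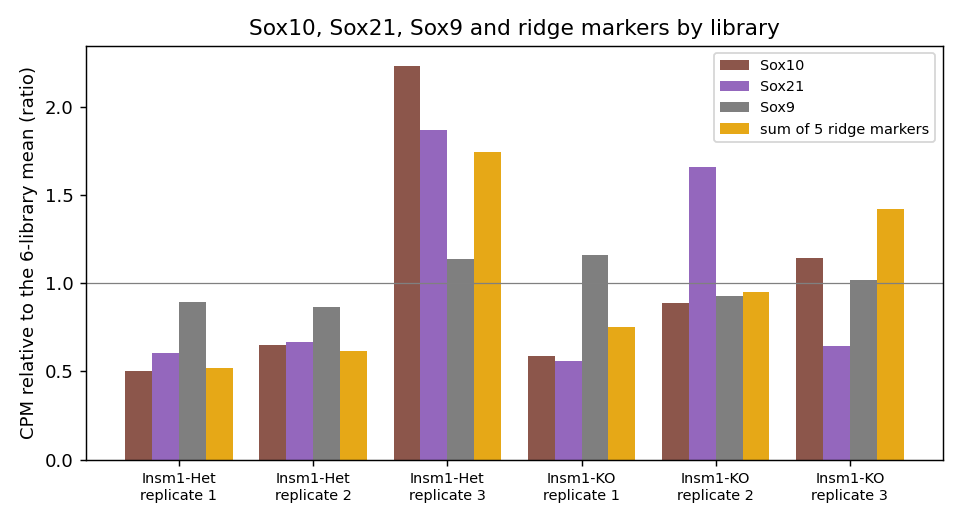
CPM of Sox10, Sox21, Sox9 and the sum of the 5 ridge markers in each library, as a ratio to the mean of the 6 libraries (bars from 0; the grey line marks 1). Sox10 (2.23), Sox21 (1.87) and the ridge sum (1.74) peak in Het replicate 3, Sox21 has a further peak of 1.66 in KO replicate 2, and Sox9 stays between 0.865 and 1.16.

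The other 10 Sox genes in the tables belong to subgroups A, B2, D, F, G and H, and only the 3 SoxD genes passed the filter. Sox5, a SoxD factor without a transactivation domain of its own, was at 13.8, 11.1 and 16.0 CPM in Het and at 47.8, 22.6 and 21.4 CPM in KO replicates. All 3 KO libraries lay above the Het libraries; the log2 fold change was 1.16 (SE 0.68) and missed the threshold (edgeR quasi-likelihood, Benjamini-Hochberg adjusted p = 0.938). Sox6, its close paralogue, was at 72.0, 54.4 and 31.3 CPM against 95.2, 56.5 and 123 CPM, with a log2 fold change of 0.80 (95% interval -0.17 to 1.77). Sox13 was at 18.2, 61.6 and 34.3 against 22.7, 27.0 and 35.1 CPM, with an interval from -1.72 to 0.87. The SoxF genes Sox7, Sox17 and Sox18, known from endothelium, were counted only in KO replicate 1, at 41, 7 and 17 counts, Sox15 had 26 counts in Het replicate 3 only, Sox30 at most 1 count, and Sry and Sox14 had 0 counts in every library. Sox1ot, the noncoding gene that spans Sox1 and is listed as Gm5607, ranged from 0 to 11.2 CPM over the Het and from 1.11 to 4.43 CPM over the KO libraries, and Sox2ot, which spans Sox2, had at most 5 counts in any library.

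Genes that work with Sox2 in the prosensory cochlea differed widely in level, and 0 of the 19 tested passed in either direction. Their mean levels over the 6 libraries ran from 0.0217 CPM for Fgf20, which was not tested, and 8.65 CPM for Hes1 to 1075 CPM for Eya1. Eya1, a transcriptional coactivator and phosphatase of the otic network, had mean levels of 1042 ± 156 (Het) and 1107 ± 195 CPM (KO; SD, n = 3). Its log2 fold change was 0.09 (95% interval -0.33 to 0.50). Of the 19, 14 lay above 0 and 5 below, with a median of 0.42 against 0.02 over all tested genes. The groups did not overlap for 6 members with higher KO (Gata3, Lfng, Id1, Id2, Id3 and Atoh1) and 1 with lower KO (Mycn), named after their values were seen, against 5.08% and 6.1% of all tested genes in these directions. At an unadjusted p under 0.05 edgeR placed 4 higher and 1 lower of the 19, against 5.34% of all tested genes. Of these, Atoh1, the factor that starts hair cell differentiation, was at 440.3, 411 and 450 CPM in Het and at 599, 560.2 and 871 CPM in KO replicates, a log2 fold change of 0.64 (SE 0.22). It missed the threshold (edgeR quasi-likelihood, Benjamini-Hochberg adjusted p = 0.92). For 10 of the 20 genes KO replicate 3 was the highest library, as it was for 24.5% of all tested genes. It was also the highest for 7 of the 14 supporting cell markers, but Prox1, Hey2, Jag1 and Lfng count in both lists. Hes5 and Cdkn1b are in both lists too and were highest in other libraries. The counts are therefore not independent, and the part of these markers in the list's median was not tested.

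Of genes known as targets of SoxC factors in neural cells, 4 of 6 were tested and 0 passed, with 0 above 0 and 4 below and a median log2 fold change of -0.06. Isl1, a LIM-homeodomain factor, had mean levels of 98.6 ± 25.2 (Het) and 96.7 ± 41.8 CPM (KO; SD, n = 3), and Map2, a microtubule protein listed as Mtap2, 85.0 ± 6.81 and 79.4 ± 34.3 CPM. Of genes known as targets of SoxE factors in cartilage, glia and melanocytes, 9 of 16 were tested and 0 passed, with 4 above 0, 5 below and a median of -0.18. Col2a1, the cartilage collagen that Sox9 activates, was at 171, 192 and 384 CPM in Het and at 249, 209 and 393 CPM in KO replicates, high in Het replicate 3 and KO replicate 3. Col11a1, a further fibrillar collagen, was at 39.7, 56.7 and 141 CPM in Het and between 48.5 and 64.6 CPM in KO libraries. Of the 16 genes of this list, 6, Col11a1 among them, had their highest level in Het replicate 3, as did 16.6% of all tested genes, and 3 (Acan, Dct and Gjb1) were at 0 in all 6 libraries.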

How the data were processed

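Per the labels' protocols, RNA of sorted cells was depleted of ribosomal RNA, primed with random hexamers, amplified and sequenced in pairs of 100 bp. The authors deposited raw read counts per gene symbol for each library. The submitters' processing notes name Trimmomatic, STAR, HTSeq and GRCm38; versions, annotation and strand setting are not stated there. Amplification can skew coverage along a transcript, which bears on levels per length.

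From these counts, filterByExpr (minimum count 10, minimum total 15) kept 11714 genes, 8 of the 10 members among them; the rest held 0.274% of counts. Counts were scaled by TMM and compared in edgeR 4.0.16 under R 4.3.3 (glmQLFit and glmQLFTest, default settings, genotype alone), with Benjamini-Hochberg adjustment over all tested genes and a threshold of 0.05. The SE is the size of the log2 fold change over the square root of F. Alternatives were DESeq2 1.42.0, limma-voom (limma 3.58.1), other scalings, filters and fit forms, the replicate block, a threshold of 0.01, other gene lengths and leaving out each library. The code was tested on simulated data. Floors of 3 counts cover counting error only, since amplified reads are not independent molecules.

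The members and lists were chosen with earlier results of these data known. By rule, the text names all members, the 2 most abundant genes of each list and any past the threshold, other Sox and flanking noncoding genes with a mean of at least 1 CPM, and the 3 genes (mean of at least 5 CPM) most like the most abundant member of each subgroup in log2 CPM (prior count 2); other genes were named after their values were seen, and 1 gene of the rule is not reported here. All 143 list entries were matched to symbols of the tables, 4 through RefSeq synonyms. The most abundant markers were Myo6 and Ptprq (hair cell), Strip2 and Chrna10 (outer hair cell), Prox1 and Jag1 (supporting cell), Tecta and Itga8 (ridge), Nefm and Nefl (neuron), Cnp and Mbp (glia), Kit and Mitf (melanocyte), Pdgfra and Col2a1 (mesenchyme) and Egfl7 and Cdh5 (endothelium). Summed levels in Het and KO libraries were 785 to 971 and 758 to 836 CPM for outer hair cell, 993 to 1186 and 957 to 1580 CPM for neuron, 132 to 172 and 185 to 193 CPM for glial, 399 to 755 and 544 to 576 CPM for mesenchyme, 54.4 to 149 and 80.9 to 167 CPM for melanocyte and 6.43 to 27.2 and 8.48 to 34.1 CPM for endothelial markers.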

Additional observations from a re-analysis of the deposited data

How the results depend on the processing

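No tested Sox member passed over all genes in an alternative that gave it an adjusted p; DESeq2 gave Sox8 none. Sox8, Sox9 and Sox12 kept their direction in all alternatives that fitted them. Without a filter on low counts Sox1 could be fitted too and did not pass, and with at least 5 CPM in 3 libraries Sox8 could not be tested. Over all genes the count of calls, 0 in the reported fit (626 at an unadjusted p under 0.05), was 26 by DESeq2, 67 with no filter, 1 in the newer form of the quasi-likelihood fit and 1 with the replicate block; limma-voom, the other scalings, the stricter filter and threshold and each left-out library gave 0. Sox4 turned to 0.023 by limma-voom and to 9.21e-05 with the replicate block, and Sox11 to -0.044 with library-size scaling; the cause was not tested. Over the 6 fits that leave out 1 library, the log2 fold change ran from -0.41 to 0.038 for Sox2, -0.79 to 0.59 for Sox21, -0.27 to 0.41 for Sox4, -0.29 to 0.26 for Sox11 and -0.73 to 0.61 for Sox10. No pairing of the samples by replicate number was seen. Deviations of same-numbered libraries from their group means had correlations of 0.0101, 0.0073 and 0.0144, and 3 of 6 libraries correlated best with their own number. With 3 libraries per genotype this cannot settle whether the numbers stand for a shared litter or batch. Among levels per kb, other scalings and transcript lengths moved none by over 1.5 times, while leaving out Het replicate 3 took the Het means of Sox10 from 17.6 to 9.02 and of Sox21 from 17.9 to 10.9 CPM per kb. Without KO replicate 2 the KO mean of Sox21 went from 16.3 to 10.3, without KO replicate 1 that of Sox8 from 0.437 to 0.0388, and without Het replicate 1 the Het mean of Sox1 from 0.0843 to 0 CPM per kb. With 1 to 96 counts, depth limits what can be said of Sox8, and for Sox3 in all libraries and Sox1 in 5 of 6 only upper limits can be given.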

Other observations

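By the rule for likeness over the 6 libraries, the genes whose log2 CPM followed Sox2 most closely were 2310011J03Rik (Pearson r = 0.987), Ptpn4 (0.986) and Rp9 (0.983), out of 10327 candidates with a mean of at least 5 CPM. For Sox11 they were Acap2 (r = 0.994), Whrn (0.989) and Msi2 (0.986), and for Sox9 they were Arhgef10 (r = 0.995), Emilin2 (0.989) and Ints7 (0.982). With 6 libraries many genes reach such values: 119 had r of at least 0.9 with Sox2, 106 with Sox11 and 42 with Sox9. The points share library and depth, and the values are a description. Whrn, the stereocilia scaffold whirlin, was at 16.8, 37.3 and 26.0 CPM in Het and at 22.3, 14.1 and 38.7 CPM in KO replicates. This is the same order of libraries within each genotype as Sox11. Whrn was picked by its correlation with Sox11 in these libraries, so the shared order largely follows from the choice.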
